A study of Homo sapiens with 12 samples.

Results

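The mature miRNAs hsa-miR-34a-5p, hsa-miR-192-5p, hsa-miR-194-5p and hsa-miR-215-5p, 4 miRNAs linked to the tumour suppressor p53, were followed across small RNA libraries of HCT116 cells, a human colorectal carcinoma line, that lack DROSHA. The members were chosen by name, with the line of most reads taken for each, and all 4 were found among 1277 mature miRNAs in the table. Each group held 3 libraries, 12 in all, and every library came from cells with DROSHA knocked out that also received 4.5 µg of the plasmid pXC-NLS-DG4. With it came 4.5 µg of a pCK plasmid that coded for DROSHA with the belt deleted, for the DROSHA mutant m4 or for wild type DROSHA, or an empty pCK plasmid without DROSHA. The labels do not describe the alteration in m4, the borders of the belt or the product of the DG4 plasmid, and they do not say whether the knockout line is a single clone. They number the repeats without saying that these are separate cultures, so p-values measure the spread between these samples, which may be technical.

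DROSHA works in the nucleus, where it cleaves primary miRNA transcripts at the base of a hairpin and so releases the precursor that Dicer then trims to the mature miRNA. Transcription of the genes for miR-34a and for the clusters of miR-192, miR-194 and miR-215 is raised by p53, which is wild type in HCT116 cells. miR-34a targets include the cyclin-dependent kinases CDK4 and CDK6, BCL2, the MET receptor and SIRT1, while miR-192 and miR-215 restrain the cell cycle and miR-194 marks epithelium of gut and liver. What each DROSHA construct did to the levels of these miRNAs is the question the groups address.

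The mature sequences show which members can share targets, since a miRNA recognises its targets mainly through its seed, here bases 2 to 8 counted from the 5′ end. They are given 5′ to 3′ from RefSeq on GRCh38.p14, with the seed in capitals, and miR-449c-5p is added as a relative of miR-34a.
miR-34a-5p: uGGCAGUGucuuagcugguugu
miR-449c-5p: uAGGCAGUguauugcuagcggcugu
miR-192-5p: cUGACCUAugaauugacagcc
miR-215-5p: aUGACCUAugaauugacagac
miR-194-5p: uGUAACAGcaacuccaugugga

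The 4 members carry 3 seeds. miR-192-5p and miR-215-5p share the seed UGACCUA and are identical at 19 of 21 bases, and the differences, counted from 1 at the 5′ end with the base of miR-192-5p first, are C1A and C20A. Reads of this pair could have been divided by the counting, whose treatment of similar sequences is not given in the sources used here. In miR-449c-5p the letters GGCAGUG, the seed of miR-34a-5p, start at base 3 instead of base 2.

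On GRCh38 the mature miR-34a-5p lies at chr1:9151735-9151756, minus strand, and its hairpin inside an exon of the lincRNA gene MIR34AHG in GENCODE 29. miR-192-5p lies at chr11:64891203-64891223, minus strand, in an exon of the lincRNA gene MIR194-2HG, and the hairpin MIR194-2 follows 108 bases away in an exon of the same gene. miR-215-5p lies at chr1:220117916-220117936, minus strand, and its hairpin and MIR194-1 span 389 bases, both within introns of IARS2 on the opposite strand. Mature miR-194-5p comes from both hairpins, at chr11:64891404-64891425 and chr1:220118206-220118227, and its 2 lines in the table differed by 0 reads in every library, so the 2 loci cannot be told apart by it.

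DROSHA acts on the hairpin, so the hairpins are shown with their mature arms in capitals.
MIR34A: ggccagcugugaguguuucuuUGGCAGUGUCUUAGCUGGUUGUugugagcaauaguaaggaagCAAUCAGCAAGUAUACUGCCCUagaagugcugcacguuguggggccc
MIR192: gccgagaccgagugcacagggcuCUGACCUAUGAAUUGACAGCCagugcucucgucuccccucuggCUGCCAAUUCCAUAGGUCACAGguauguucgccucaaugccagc
MIR215: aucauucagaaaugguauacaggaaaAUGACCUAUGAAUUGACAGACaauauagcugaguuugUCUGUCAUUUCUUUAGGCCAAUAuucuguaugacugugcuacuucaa
MIR194-2: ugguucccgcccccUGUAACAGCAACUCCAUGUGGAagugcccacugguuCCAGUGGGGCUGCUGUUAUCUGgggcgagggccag

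As folded by RNAfold, the MIR34A hairpin had a minimum free energy of -42.9 kcal/mol per 100 nt at 50.9% GC, near the medians of -45 kcal/mol per 100 nt and 54.4% over the 276 of 316 hairpins of tested miRNAs that had a RefSeq sequence. The MIR192 hairpin had -35.5 kcal/mol per 100 nt at 57.3% GC. MIR215 was the least stable of the 4 shown with -30 kcal/mol per 100 nt at 34.5% GC, and MIR194-2 the most stable with -58.4 kcal/mol per 100 nt at 62.4% GC. The other source of miR-194-5p, MIR194-1, had -45.2 kcal/mol per 100 nt, near the median, at 41.2% GC. The close sequences of miR-192-5p and miR-215-5p thus sit in hairpins of unlike base composition.

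The libraries held 239717 to 332081 reads with the belt deletion and 101886 to 223588 with m4. They held 174323 to 284290 with wild type and 202474 to 275834 with the empty plasmid. In these totals names with matching reads were merged, but only names with over 120 reads in all were compared. Because most miRNAs depend on DROSHA, counts were scaled to miRNAs that mature without it, and levels below are scaled reads, that is reads divided by the library's size factor. A change is a log2 value with its standard error (SE), tested with edgeR over 310 miRNAs, and a call is an adjusted p under 0.05. All 4 members were scarce, and exact Poisson intervals on their reads cover counting error only. In these bulk libraries fewer cells with a transcript and less RNA per cell cannot be told apart.

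**Figure D1:**
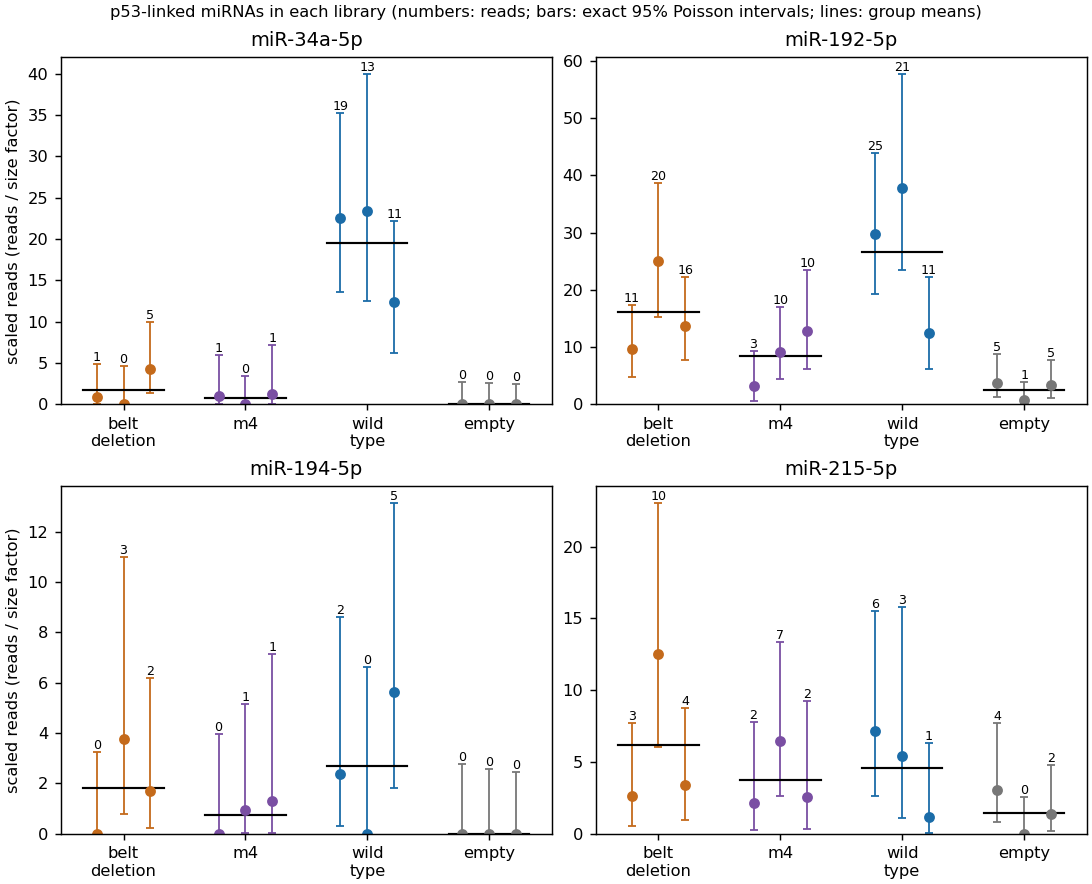
Scaled reads (reads divided by the size factor, y axis) of the 4 members in every library of the belt deletion, m4, wild type and empty groups (x axis). Points are libraries with their read number, bars are exact 95% Poisson intervals and lines are group means. For miR-34a-5p the 3 wild type libraries, at 12.4 to 23.4, lie above all others, whereas for miR-192-5p the belt deletion and wild type libraries overlap.

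miR-34a-5p was found in every wild type library and was at or near 0 in the rest. Belt deletion libraries 1, 2 and 3 had 1, 0 and 5 reads, and the m4 libraries had 1, 0 and 1. The wild type libraries had 19, 13 and 11 reads, and the 3 empty libraries had 0. All wild type libraries stood above every library of the other groups, which overlapped among themselves. The level averaged 1.72 ± 2.25 scaled reads with the belt deletion, 0.784 ± 0.687 with m4, 19.5 ± 6.13 with wild type and 0 with the empty plasmid (SD, n = 3 each). Even with wild type DROSHA it ranked between 186 and 221 among the miRNAs of a library. It passed the filter on low counts through the wild type libraries, since no other library had more than 5 reads. Its entry into the test therefore depended on the group where it is high, so each comparison below is also given from a fit of all 1277 miRNAs without the filter.

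With the belt deletion miR-34a-5p was lower than with wild type by a log2 change of -3.27 (SE 0.77, 95% interval -4.77 to -1.76, adjusted p = 0.000861). In the fit without the filter the change was -3.27 as well (adjusted p = 0.00101, with 2.58% of 1277 called lower). Of the 310 tested, 29 miRNAs were called lower in this comparison (9.35%), while 10 were called higher (3.23%), and the median of all tested was 0.04. In pooled reads, 6 with the belt deletion against 43 with wild type, the level was 9.75-fold lower, with a counting interval of 4.13 to 28.0. Of those 6 reads 5 came from belt deletion replicate 3, and without it the change was -4.94 (adjusted p = 0.000463). With m4 the change against wild type was -4.52 (SE 0.92, adjusted p = 2.71e-05), and without the filter it was the same (adjusted p = 1.37e-05, with 9.16% of 1277 called lower). There 106 miRNAs were called lower (34.2%) and 11 higher (3.55%), and the median of all tested was -0.19. The pooled level of 2 reads with m4 against 43 with wild type was 26.3-fold lower, with a counting interval of 6.85 to 224, and without m4 replicate 2 the change was -3.91 (adjusted p = 0.000559). In neither comparison with wild type did the groups overlap.

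Between the mutants, the difference in miR-34a-5p did not pass the test. For the belt deletion against m4 the log2 change was 1.26 (SE 1.23, 95% interval -1.15 to 3.66, adjusted p = 0.541, or 0.672 without the filter), with overlapping groups and a sign that turned without belt deletion replicate 3 (-0.42). In that comparison 80 of 310 miRNAs were called higher (25.8%) and 4 lower (1.29%).

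Against the empty plasmid, which gave no read of miR-34a-5p, folds are pooled levels over a floor of 3 reads for the empty group. They leave out the counting error of the group with DROSHA, so they are not lower limits. With wild type the level was 26.8-fold above the floor, and the call had an adjusted p of 3.15e-08. Without the filter its adjusted p was 6.84e-10, where 15.5% of 1277 were called higher. In this comparison 132 of the 310 miRNAs were called higher (42.6%) and 2 lower (0.645%). With the belt deletion the level was 2.75-fold above the floor and was called (adjusted p = 0.0225, or 0.0404 without the filter, where 12.8% of 1277 were called higher). With the filter, 133 miRNAs were called higher here (42.9%) and 1 lower (0.323%). That call rests on belt deletion replicate 3, which holds 5 of the 6 reads, and without it the adjusted p was 0.302. It was also lost without empty replicate 2 (0.0557) or empty replicate 3 (0.0602). With m4, 2 reads in 3 libraries gave no call (adjusted p = 0.193, or 0.424 without the filter) while 127 of the 310 miRNAs were called higher (41%) and 3 lower (0.968%). Fewer than 3 reads with m4 allow no fold against a group without reads.

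miR-192-5p was detected in all 12 libraries, including those without DROSHA. The belt deletion libraries 1, 2 and 3 had 11, 20 and 16 reads and the m4 libraries 3, 10 and 10. The wild type libraries had 25, 21 and 11 reads and the empty libraries 5, 1 and 5. Every belt deletion and wild type library was above every empty library, while m4 overlapped both wild type and empty libraries. Scaled levels averaged 16.1 ± 8.0 with the belt deletion, 8.42 ± 4.84 with m4, 26.6 ± 13.0 with wild type and 2.59 ± 1.66 with the empty plasmid (SD, n = 3 each).

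The log2 change of miR-192-5p with wild type against the empty plasmid was 3.28 (SE 0.60, adjusted p = 1.97e-06), a 9.70-fold rise. With the belt deletion it was 2.56 (SE 0.61, adjusted p = 0.000240), a 5.88-fold rise. For m4 against the empty plasmid the change was 1.64 (SE 0.66, adjusted p = 0.0371), with overlapping groups, and the call was lost in 8 of 16 alternatives, as under TMM scaling (adjusted p = 0.137). Among these were the fits without empty replicate 2 (0.206), empty replicate 3 (0.0528), m4 replicate 2 (0.0852) or m4 replicate 3 (0.197). These 3 comparisons share the empty libraries.

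Relative to wild type, miR-192-5p was lower with m4 by a log2 change of -1.64 (SE 0.55, adjusted p = 0.0132). The groups overlapped, and the call was lost in 5 of 17 alternatives, with -0.65 (adjusted p = 0.316) under total-count scaling. It was lost without wild type replicate 1 (0.0647), wild type replicate 2 (0.107) or m4 replicate 1 (0.0850). With the belt deletion the change against wild type was -0.72 (SE 0.51, adjusted p = 0.371), with a 95% interval of -1.72 to 0.28 that leaves room for a fall as well as for no change. For the belt deletion against m4 miR-192-5p changed by 0.91 (SE 0.56, interval -0.18 to 2.01, adjusted p = 0.273).

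**Figure D2:**
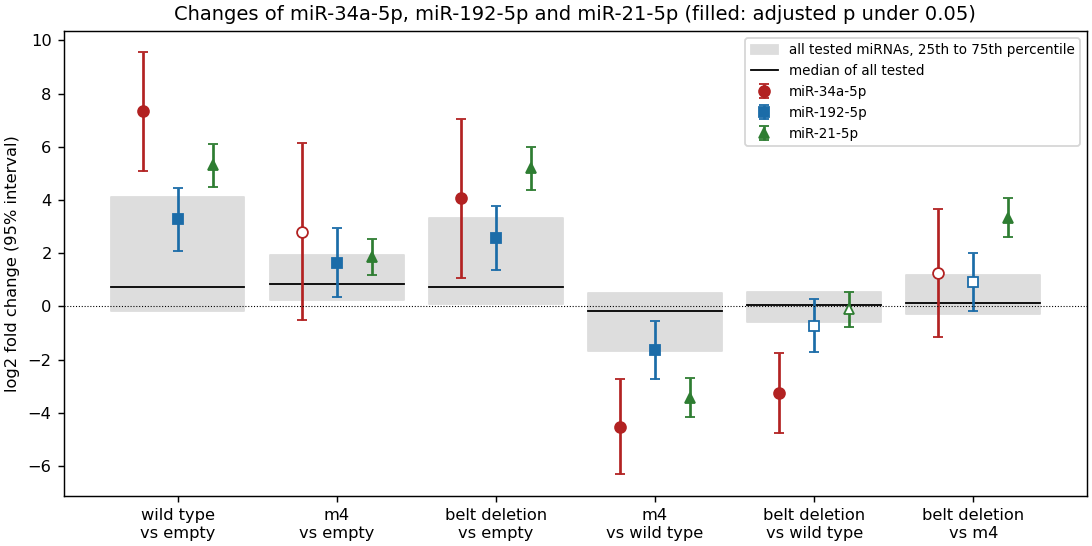
Log2 fold change from edgeR (y axis, bars are 95% intervals) of miR-34a-5p, miR-192-5p and the abundant miR-21-5p in the 6 comparisons (x axis). Filled symbols have an adjusted p under 0.05, and grey boxes with a line give the middle range and the median of all 310 tested miRNAs. In belt deletion against wild type miR-34a-5p is at -3.27 and miR-192-5p at -0.72, both below the grey box, whose lower edge is at -0.60. miR-21-5p lies inside the box, and both miR-192-5p and miR-21-5p have open symbols.

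The 2 other members stayed below the filter on low counts and entered only a fit without it. miR-194-5p had 0, 3 and 2 reads with the belt deletion, 0, 1 and 1 with m4, 2, 0 and 5 with wild type and 0 in every empty library. Each group with DROSHA had a library at 0, so all groups overlapped. Scaled levels averaged 1.82 ± 1.88 with the belt deletion, 0.735 ± 0.661 with m4 and 2.67 ± 2.83 with wild type (SD, n = 3 each). The pooled level was 4.37-fold above a floor of 3 reads for the empty group with wild type and 2.29-fold above it with the belt deletion. These folds leave out the counting error of the groups with DROSHA, so they are not lower limits. Replicate 3 gave 5 of the 7 wild type reads. In the fit of all 1277 miRNAs without the filter, where 15.5% were called higher with wild type than with the empty plasmid, miR-194-5p was among them (adjusted p = 0.0301). For the belt deletion against the empty plasmid its adjusted p was 0.124, beside 12.8% called higher.

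miR-215-5p had 3, 10 and 4 reads with the belt deletion, 2, 7 and 2 with m4, 6, 3 and 1 with wild type and 4, 0 and 2 with the empty plasmid. No group stood apart from another. Its scaled level averaged 6.20 ± 5.51 with the belt deletion, 3.72 ± 2.38 with m4, 4.55 ± 3.09 with wild type and 1.45 ± 1.51 with the empty plasmid (SD, n = 3 each). In pooled reads the belt deletion was 3.90-fold higher than the empty plasmid (counting interval 1.47 to 12.1) and 1.25-fold higher than wild type (0.541 to 3.06). Without the filter the adjusted p was 0.133 for the belt deletion against the empty plasmid, 0.349 for wild type against the empty plasmid and 0.930 for the belt deletion against wild type, so no difference of miR-215-5p was detectable at this depth.

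The makeup of the members' reads is given without a test. miR-34a-5p made up 8% of the 75 reads of the 4 members with the belt deletion, 5.26% of 38 with m4, 36.8% of 117 with wild type and 0% of 17 with the empty plasmid. Ratios of reads within a library do not depend on scaling, so miR-34a-5p was set against miR-192-5p, its fellow target of p53, and against miR-21-5p, an abundant miRNA cut by DROSHA. For every 100 reads of miR-192-5p there were 9.09, 0 and 31.3 reads of miR-34a-5p in belt deletion libraries 1, 2 and 3. The m4 libraries had 33.3, 0 and 10 and the wild type libraries 76, 61.9 and 100. Wild type was above both mutants in every library.

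As a log2 ratio with 0.5 reads added to both, miR-34a-5p over miR-192-5p averaged -3.29 ± 1.91 with the belt deletion, -2.81 ± 1.58 with m4 and -0.35 ± 0.34 with wild type (SD, n = 3 each). The difference from wild type was -2.94 for the belt deletion and -2.45 for m4, each without overlap and each with a two-sided exact permutation p of 0.1, the smallest that 3 against 3 libraries allow (0.2 after adjustment over 24 ratios and comparisons). Their size rests on few reads. The belt deletion difference was -1.91 without belt deletion replicate 2 and -3.80 without replicate 3. The m4 difference was -3.25 without m4 replicate 1 and -1.66 without m4 replicate 2.

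The comparison with miR-21-5p gave other values for m4. The ratio of miR-34a-5p to miR-21-5p differed from wild type by -3.59 with the belt deletion, a 12-fold lower ratio without overlap (exact permutation p = 0.1). Without belt deletion replicate 2 the difference was -2.88, and without replicate 3 it was -4.45. With m4 it differed from wild type by -0.71, with overlapping groups (exact permutation p = 0.4), and by -0.08 without m4 replicate 2. Between the mutants, belt deletion against m4, the difference of -2.88 came with overlapping groups (exact permutation p = 0.2). miR-21-5p itself fell by 3.44 on the log2 scale with m4 against wild type, and changed by -0.11 with the belt deletion against wild type (adjusted p = 0.858). The ratio of miR-192-5p to miR-21-5p was higher with m4 than with wild type by 1.74 (exact permutation p = 0.1, no overlap), and for the belt deletion it differed from wild type by -0.65 (p = 0.2, with overlap). The ratio of miR-215-5p to miR-192-5p was higher by 0.99 with the belt deletion than with wild type (exact permutation p = 0.1, no overlap), and with wild type it was lower by 1.51 than with the empty plasmid in the log2 ratio (p = 0.1, no overlap).

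**Figure D3:**
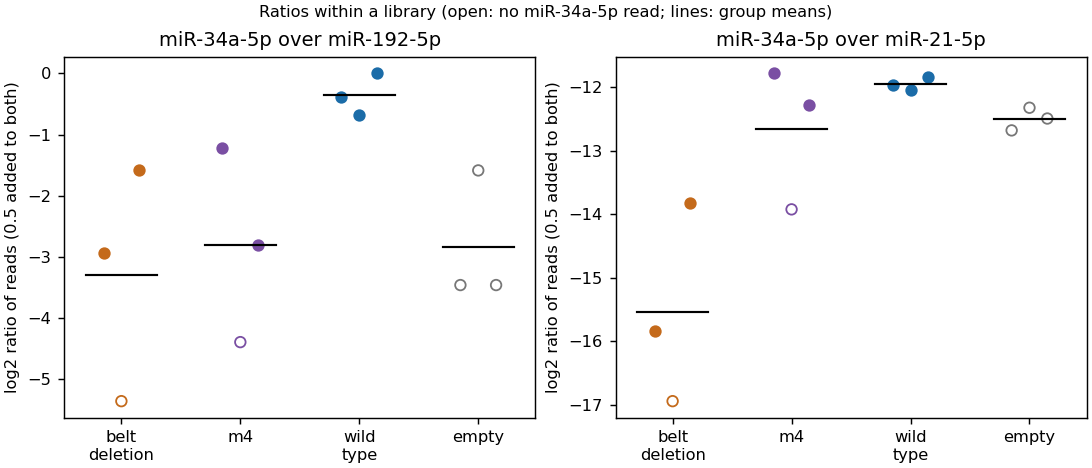
Log2 ratio of miR-34a-5p reads to those of miR-192-5p (left) and of miR-21-5p (right) in each library, with 0.5 added to both counts (y axes), for the belt deletion, m4, wild type and empty groups (x axis). Lines are group means, and open points are libraries without a miR-34a-5p read, whose position follows from the other miRNA. The wild type libraries are tightly grouped around -11.95 in the right panel, and the belt deletion libraries lie below them.

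Relatives of miR-34a-5p by seed were also most abundant with wild type. Of the 5 on the list, miR-34c-5p and miR-449c-5p were in the table, and both stayed below the filter. miR-34c-5p, made with miR-34b from a p53 target gene on chromosome 11, had 0, 2 and 0 reads with the belt deletion, 0 in every m4 library, 4, 4 and 1 with wild type and 0, 0 and 1 with the empty plasmid. miR-449c-5p, from a cluster known for its role in multiciliated cells, had 0, 0 and 1 reads with the belt deletion, 0 in every m4 library, 8, 6 and 5 with wild type and 0 in every empty library. For miR-449c-5p all wild type libraries were above all others, while for miR-34c-5p the wild type libraries were above those of m4 and the empty plasmid in scaled reads and overlapped the belt deletion.

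In pooled reads miR-449c-5p was 25.8-fold lower with the belt deletion than with wild type, with a counting interval of 4.11 to 1074 for 1 read against 19. With m4, which had 0 reads, a floor of 3 reads gave a level 7.75-fold lower than with wild type. The floor is not used where a read was found, so these folds do not rank the mutants. In the fit without the filter its adjusted p was 0.0178 for the belt deletion against wild type, where 2.58% of 1277 were called lower, and 0.00107 for m4 against wild type, where 9.16% were called lower. For miR-34c-5p the adjusted p against wild type was 0.568 with the belt deletion and 0.0510 with m4. miR-34a-5p, miR-34c-5p and miR-449c-5p together reached 2.84 ± 2.14 scaled reads with the belt deletion, 0.784 ± 0.687 with m4, 32.5 ± 11.7 with wild type and 0.221 ± 0.383 with the empty plasmid (SD, n = 3 each). Of the 71 reads of this family with wild type, miR-34a-5p gave 60.6%.

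**Figure D4:**
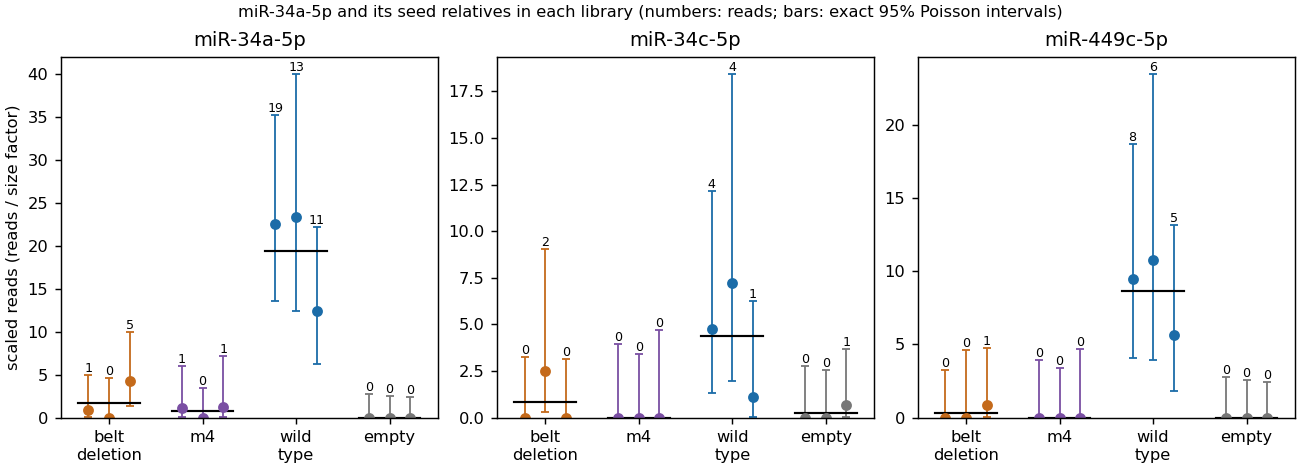
Scaled reads (y axis) of miR-34a-5p, miR-34c-5p and miR-449c-5p in each library of the belt deletion, m4, wild type and empty groups (x axis), with read numbers, exact 95% Poisson intervals as bars and group means as lines. miR-449c-5p was found in all 3 wild type libraries, with 8, 6 and 5 reads, and in belt deletion library 3 with 1 read.

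The opposite arms were rarer still. miR-34a-3p was read 1, 0 and 5 times in belt deletion libraries 1, 2 and 3, the same numbers as miR-34a-5p there, and 0 times in all other libraries. How the counting assigned reads to arms is not given in the sources used here, so whether these are separate reads was not tested, and the same doubt touches the 6 belt deletion reads of miR-34a-5p. With wild type all 43 reads of the hairpin were on the 5p arm (exact interval 91.8 to 100%). In belt deletion library 3, 7 of the 74 hairpins with at least 5 reads on both arms had equal numbers on the arms. miR-194-3p and miR-215-3p had at most 1 read in a library, and miR-192-3p had no line.

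Of 12 other miRNAs linked to p53, 9 were in the table and 6 were tested. Against the empty plasmid, 4 of the 6 were called higher with the belt deletion (median 2.93), 4 with m4 (median 1.92) and 3 with wild type (median 3.14), and none lower, beside 42.9%, 41% and 42.6% of all 310 called higher. The medians of all tested were 0.73, 0.83 and 0.72 for the belt deletion, m4 and wild type. Against wild type, 1 of 6 was called lower with the belt deletion (median 0.01) and 3 with m4 (median -1.22), and none higher, beside 9.35% and 34.2% of all tested called lower. Under TMM, total-count and DESeq2 scaling miR-143-3p and miR-200c-3p were called higher with m4 than with wild type (adjusted p down to 0.000252 for miR-143-3p and 0.000310 for miR-200c-3p). For the belt deletion against m4, 1 of 6 was called higher, beside 25.8% of all tested. The calls of miR-16-5p and miR-200c-3p for m4 against the empty plasmid were each lost in some alternative, in 7 of 16 for miR-16-5p and in 1 of 17 for miR-200c-3p.

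miR-22-3p, whose targets include the cell cycle inhibitor CDKN1A, was the list member called lower with the belt deletion than with wild type. It had 54, 38 and 66 reads with the belt deletion, 35, 44 and 18 with m4, 223, 135 and 138 with wild type and 9, 5 and 7 with the empty plasmid. Its change was -2.13 with the belt deletion against wild type (adjusted p = 6.48e-06) and -2.70 with m4 against wild type (adjusted p = 8.86e-09), and wild type lay above all other libraries in reads.

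miR-107, from an intron of the pantothenate kinase gene PANK1, had 368, 325 and 424 reads with the belt deletion, 49, 61 and 60 with m4, 369, 388 and 328 with wild type and 20, 13 and 18 with the empty plasmid. It changed by -0.46 with the belt deletion against wild type (adjusted p = 0.371) and fell by 3.02 on the log2 scale with m4 against wild type (adjusted p = 2.53e-11). For the belt deletion against m4 it was called higher, at 2.56 (adjusted p = 3.53e-09), a comparison in which miR-34a-5p had no call.

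miR-16-5p, whose processing p53 is reported to assist through the DROSHA complex, had 7, 13 and 18 reads with the belt deletion, 1, 7 and 8 with m4, 45, 15 and 22 with wild type and 5, 0 and 0 with the empty plasmid. It fell by 2.59 on the log2 scale with m4 against wild type (adjusted p = 0.000562), a call lost when reads of hairpin copies were summed (adjusted p = 0.0584). With the belt deletion against wild type it changed by -1.50 (adjusted p = 0.0723), and was called lower in 2 of 17 alternatives (adjusted p down to 0.00340). The epithelial miR-200c-3p was called higher than the empty plasmid with m4 (1.24, adjusted p = 0.00541) and with the belt deletion (0.97, adjusted p = 0.0285). The belt deletion call was lost in 8 of 17 alternatives, up to an adjusted p of 0.811, among them the fits without empty replicate 2, empty replicate 3 or belt deletion replicate 2. Its change with wild type against the empty plasmid was 0.48 (adjusted p = 0.340) and turned negative under TMM, total-count and DESeq2 scaling. Neither miR-143-3p nor miR-1246 was called in any of the 6 comparisons as first fitted. Under TMM, total-count and DESeq2 scaling miR-143-3p was called lower with wild type than with the empty plasmid (adjusted p down to 0.00180), and under total counts it was called lower with the belt deletion than with m4 (0.0320). miR-1246 was called higher with the belt deletion than with the empty plasmid in 3 of 17 alternatives (adjusted p down to 0.0196), and with m4 than with the empty plasmid in the fit of these groups alone (0.000866). miR-15a-5p, miR-145-5p and miR-141-3p were too scarce for the filter.

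The miRNAs whose levels over the 12 libraries were most like those of miR-34a-5p, by Pearson's r of log2(scaled reads + 1), were miR-28-5p (0.919), miR-30d-5p (0.897), miR-29a-3p (0.894), miR-30e-5p (0.893) and miR-7-5p (0.884). miR-28-5p averaged 7.46 scaled reads with the belt deletion, 2.30 with m4, 15.7 with wild type and 1.66 with the empty plasmid. miR-30d-5p averaged 295 with the belt deletion, 169 with m4, 1478 with wild type and 48.4 with the empty plasmid. For miR-192-5p they were miR-106b-3p (0.928), miR-16-5p (0.925), miR-100-5p (0.924), miR-30b-5p (0.924) and let-7b-5p (0.923). miR-192-5p was 72nd in likeness to miR-34a-5p, with r = 0.666. These values describe 12 libraries that share size factors and the same 4 groups.

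Of the miRNAs listed for the labelled colon carcinoma line, miR-21-5p, miR-200c-3p and miR-200b-3p were present in every library and miR-141-3p in 11 of 12, with 0 reads in belt deletion replicate 3. The summed scaled level of these 4 ran from 67828 to 79492 with the belt deletion, 5825 to 9720 with m4, 47438 to 102905 with wild type and 1848 to 2551 with the empty plasmid. Nearly all of it was miR-21-5p, so the sum does not describe the epithelial miR-200c-3p and miR-200b-3p. With m4 against wild type miR-21-5p changed by -3.44, while miR-200c-3p and miR-200b-3p changed by 0.75 and 0.25 without a call (adjusted p = 0.109 and 0.663). Of 12 markers of liver, smooth muscle, endothelium, neurons, blood and striated muscle, 7 were in the table. Their sum ran from 569 to 786 with the belt deletion, 325 to 628 with m4, 479 to 700 with wild type and 216 to 292 with the empty plasmid. With the belt deletion and wild type most of it came from the endothelial marker miR-126-3p, at 404 ± 77.5 scaled reads with the belt deletion, 150 ± 33.6 with m4, 393 ± 112 with wild type and 9.44 ± 2.30 with the empty plasmid (SD, n = 3 each). It rose by 5.37 on the log2 scale with wild type against the empty plasmid (adjusted p = 2.97e-20). With the belt deletion against wild type it changed by 0.04 (adjusted p = 0.958), where miR-34a-5p changed by -3.27 and miR-192-5p by -0.72. In wild type against the empty plasmid miR-9-5p changed by 1.77, miR-143-3p by -0.25 and miR-122-5p by -0.69. Of these only miR-9-5p was called. The smooth muscle marker miR-143-3p, the liver marker miR-122-5p and the neuronal marker miR-9-5p had 1839, 772 and 649 reads over all libraries. miR-145-5p, miR-451a and miR-1-3p had 8, 3 and 3 reads. The markers miR-124-3p of neurons, miR-223-3p and miR-142-3p of blood, and miR-133a-3p and miR-206 of striated muscle had no line. The part of these markers in the members' levels was not tested.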

How the data were processed

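Per the labels' protocols, 10 µg of total RNA per sample was run on a 15% gel and RNA between 19 and 24 nt was cloned. The authors deposited raw counts, 1 line for each mature miRNA of a hairpin. The submitters' processing notes name cutadapt, Bowtie2 and hg38; the counter, the miRNA annotation and the use of strand are not given in the sources used here. Blank cells (42.7%) were read as 0. Lines of 1 mature name were collapsed to the line with most reads, and 9 further name pairs whose reads matched (within 5 reads or 5% in each library) were merged, leaving 101886 to 332081 reads per library.

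Size factors were the median ratio over 5 features that mature without DROSHA (miR-1226, miR-1224, miR-877, miR-484 and the miR-320 sum). Groups were compared with edgeR 4.0.16 (R 4.3.3, robust quasi-likelihood), all 12 libraries being fitted together, on the 310 miRNAs that filterByExpr kept, with Benjamini-Hochberg adjustment. A standard error is the log2 change over the root of F. Ratios were tested with exact permutation tests (scipy 1.17.1), hairpins were folded with RNAfold 2.7.2, and DESeq2 1.42.0 was an alternative. The edgeR fit was also run on simulated counts with a fixed dispersion. That run was not aimed at counts as low as those of the members, so it lends no support to their calls. The text names all members, their opposite arms, seed relatives, a list of other p53-linked miRNAs, and the 5 miRNAs most like each tested member. Members and lists were chosen with earlier results of these data known. Alternatives covered scaling, filter, tool, hairpin copies, each library left out and a replicate block.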

Additional observations from a re-analysis of the deposited data

How the results depend on the processing

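For miR-34a-5p the change stayed on its side of the threshold in every alternative run for m4 against wild type (16 alternatives, -4.97 to -3.59), belt deletion against wild type (17, -4.94 to -2.84, adjusted p 8.41e-06 to 0.0144), and wild type against the empty plasmid (17, 6.88 to 7.60). So did that of miR-192-5p for the belt deletion (16, 1.77 to 2.88) and wild type (17, 2.47 to 3.73) against the empty plasmid. Except for the fit without the filter, these alternatives kept a count filter that miR-34a-5p passed through the wild type libraries. For miR-34a-5p they are therefore not independent support. In the fit of the m4 and wild type groups alone miR-34a-5p was not among the miRNAs kept, so that fit gave no test of it. The call of miR-34a-5p for belt deletion against the empty plasmid was lost in 6 of 16 alternatives: under TMM, DESeq2 and total-count scaling (adjusted p 0.0613, 0.0602 and 0.0654), and without empty replicate 2 (0.0557), empty replicate 3 (0.0602) or belt deletion replicate 3 (0.302). miR-192-5p for m4 against the empty plasmid lost its call without empty replicate 2 (0.206), empty replicate 3 (0.0528), m4 replicate 2 (0.0852) or m4 replicate 3 (0.197), under DESeq2's size factors (0.160) or Wald test (0.0557), TMM, and without the filter (0.0790). For m4 against wild type it lost it without wild type replicate 1 (0.0647), wild type replicate 2 (0.107) or m4 replicate 1 (0.0850), with the summed reference (0.0503) and under total-count scaling. For belt deletion against m4, 2 values turned: miR-34a-5p to -0.42 without belt deletion replicate 3 (adjusted p = 0.956; -0.42 to 1.70 over all libraries left out in turn) and miR-192-5p to -0.0070 under total-count scaling (adjusted p = 0.994).

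Scaling shifts all miRNAs together, by up to -0.82 in their median for wild type against the empty plasmid and up to 1.05 for m4 against wild type, both under total counts. Calls for wild type against the empty plasmid numbered 134 (132 higher, 2 lower) and 213 (125 and 88) with TMM, then 126 and 68 by DESeq2 size factors and 123 and 71 under total counts. For m4 against wild type 117 calls (11 higher, 106 lower) became 193 (133 and 60) under total counts, 54 and 92 by TMM and 39 and 97 by DESeq2 size factors. For belt deletion against m4 84 calls (80 and 4) became 168 (47 and 121) under total counts and 71 and 28 under TMM. Belt deletion against the empty plasmid gave 133 and 1, against 114 and 47 with TMM, 115 and 34 with DESeq2 size factors and 109 and 33 with total counts. Belt deletion against wild type gave 10 and 29, and 17 and 32 under TMM. Which scaling is nearest to the truth was not tested. Leaving out each library gave 139 to 147, 112 to 137 and 128 to 140 calls for wild type, m4 and belt deletion against the empty plasmid. It gave 97 to 132 and 29 to 42 for m4 and belt deletion against wild type, and 74 to 86 for belt deletion against m4.

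No pairing by replicate number was seen: over 18 pairs with the same number the correlation of deviations ran from -0.247 to 0.133, and 2 exceeded 0.1. Pairs with different numbers reached -0.316 and 0.416, so with so few libraries this check cannot show whether samples were paired. A replicate block gave 134, 130 and 133 calls against the empty plasmid (wild type, m4, belt deletion), 112 and 38 against wild type (m4, belt deletion) and 83 for belt deletion against m4, and changed no call of miR-34a-5p or miR-192-5p. At 0 to 10 reads per library, differences of miR-194-5p and miR-215-5p between the mutants and wild type were not detectable at this depth.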
